A study of Mus musculus with 19 samples.

Results

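The 36 genes described here code for lysosomal membrane proteins, acid hydrolases and their cofactors, subunits of the lysosomal proton pump, the MiT/TFE transcription factors, autophagy adaptors and GPNMB. They were listed by name and matched by gene symbol, and all 36 were found among the 51707 genes to which the deposited transcript values were summed. The values come from 19 RNA-seq libraries of cells sorted from pancreatic ductal adenocarcinomas raised in C57BL/6J mice by placing T-LOH KPC organoids, cultures of mouse pancreatic tumour cells, orthotopically. Every mouse carried such a tumour and received either vehicle or neratinib, an irreversible inhibitor of ERBB family receptor kinases, for 2 weeks, so no group is free of tumour. PDPN+ cells, called cancer-associated fibroblasts (CAFs) in the labels, are represented by 4 libraries under vehicle and 4 under neratinib, and EpCAM+ cells, called epithelial, by 6 and 5. Mice were told apart by the numbers in the titles, an inference on which the p-values rest: 11 mice occur, 8 of them in both populations and none in both treatments. The labels used here state neither age nor sex of the mice. Below, V before a mouse number marks vehicle and N marks neratinib.

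Lysosomes are acidic compartments in which hydrolases break down proteins, glycans, lipids and nucleic acids that arrive by endocytosis or by autophagy, the enclosure of cytoplasm in a membrane that later fuses with the lysosome. A proton pump, the V-ATPase, keeps the lumen acidic, and heavily glycosylated membrane proteins line the limiting membrane. TFEB, TFE3 and MITF are related transcription factors that bind short E-box motifs near many lysosomal genes, and pancreatic tumours are known for a high dependence on autophagy and lysosomal breakdown. Fibroblasts also use cathepsins to degrade collagen, inside lysosomes and outside the cell.

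Gene-assigned reads numbered 30.32 to 48.06 M (M for mega) per PDPN+ library and 39.42 to 75.37 M per EpCAM+ library. Mitochondrial genes held 6.139 to 19.45% of gene reads in PDPN+ libraries and 2.149 to 2.893% in EpCAM+ libraries. Pdpn lay between 200 and 418 TPM (transcripts-per-million, a level per transcript length) in PDPN+ libraries and at most at 2.52 TPM in EpCAM+ libraries, and Epcam at most at 0.540 TPM against 114 TPM or more. All 10 fibroblast markers were higher in PDPN+ cells and all 10 epithelial markers were lower by edgeR's quasi-likelihood test (adjusted p under 0.05). The epithelial markers still summed to 287 to 1272 TPM in PDPN+ libraries, against 19093 to 26272 TPM in EpCAM+ libraries. In PDPN+ libraries Krt19, Krt8 and Krt18 had means of 358, 285 and 192 TPM, against 5562, 4657 and 6042 TPM. The other markers had lower means there: Krt7 31.2, Muc1 6.79, Cldn4 3.53, Cdh1 0.520, Cldn7 0.404, Epcam 0.140 and Esrp1 0.00319 TPM. In EpCAM+ libraries these other markers had 1430, 1483, 1698, 588, 640, 339 and 41.5 TPM. The source of the keratin RNA in PDPN+ libraries was not tested. Of 13 macrophage and monocyte markers, 12 were tested, of which 4 were higher and 1 lower in PDPN+ cells. Their summed level was 246 to 322 TPM in PDPN+ vehicle, 89.3 to 677 TPM in PDPN+ neratinib, 272 to 369 TPM in EpCAM+ vehicle and 226 to 498 TPM in EpCAM+ neratinib libraries. The 4 higher ones were Csf1r (log2 difference 3.56, mean 16.8 TPM in PDPN+ against 2.31 TPM in EpCAM+ libraries), C1qa (2.98, 6.88 against 1.14 TPM), C1qb (2.48, 8.89 against 2.20 TPM) and Lyz2 (2.35, 48.6 against 10.3 TPM), and Mrc1 was lower. Fcgr1 was at 0 in every PDPN+ library, and Ptprc, which codes for the leukocyte antigen CD45, was at most at 2.75 TPM there. Cd14 made up much of the sum, and without it the other 12 markers summed to 39.2 to 88.0 TPM in PDPN+ vehicle, 41.8 to 464 TPM in PDPN+ neratinib, 12.1 to 37.2 TPM in EpCAM+ vehicle and 11.0 to 65.8 TPM in EpCAM+ neratinib libraries. Of 4 mesothelial markers 3 were higher in PDPN+ cells, Wt1 (9.02, 73.6 against 0.195 TPM), Upk3b (7.35, 203 against 1.77 TPM) and Lrrn4 (6.35, 35.2 against 0.587 TPM). Msln had a negative difference and did not pass (-0.62, 321 against 732 TPM). Of 8 endothelial markers 4 were higher, Kdr (6.19, 9.80 against 0.182 TPM), Flt4 (6.19), Lyve1 (5.32) and Pecam1 (2.99). Emcn (-0.99), Cdh5 (-0.94), Prox1 (0.21) and Tek (0.10) did not pass. Macrophages are rich in lysosomes, and the part of macrophage, mesothelial and endothelial cells in the results below was not tested. Along the first principal component of their population, 5 libraries stood apart: V53175 and V53188 among PDPN+ libraries, and V53175, V53176 and N53178 among EpCAM+ libraries. In these PDPN+ libraries 12057 and 11876 genes reached 10 reads, against 13642 to 18552 in the other PDPN+ libraries. In these EpCAM+ libraries 17920, 17477 and 16485 genes did, and all EpCAM+ libraries ranged from 16485 to 17920. The part of this lower gene detection in results that change without V53175 and V53188 was not tested.

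PDPN+ and EpCAM+ cells differed in both directions across the lysosomal genes. By read counts, 16 members were higher in PDPN+ cells, 6 were lower and 14 did not pass, in edgeR's test of the mean of the PDPN+ groups against the mean of the EpCAM+ groups. Among all 19626 genes tested, 49.3% passed, 24.3% as higher and 25.0% as lower. The highest differences were those of Ctsk, Mitf and Gpnmb, and the lowest were those of Galc, Asah1 and Ctsh. The median log2 difference was 0.46 over the members and -0.13 over all genes. In bulk libraries such as these, fewer cells that express a gene and less RNA per cell cannot be told apart.

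The split depended on the scale. On log2(TPM + 1), tested with limma, 11 members were higher and 13 lower of the 35 tested, against 17.7% and 47.7% of all 14565 genes, and the median over all genes was -0.64 and over the members -0.09. On both scales 11 members were higher and 6 lower. Lamp2, Glb1, Psap and Map1lc3b were higher by counts alone, and Ctsa, Tpp1, Gusb, Lipa, Atp6v0d1, Atp6v1h and Sqstm1 were lower on the TPM scale alone. Mitf was too low for the TPM test. Without V53175 and V53188 of the PDPN+ cells the counts gave 14 higher and 8 lower, without the 3 EpCAM+ libraries 16 and 6, and without all 5 libraries 13 and 6. Over all genes these runs gave 5366 higher and 5652 lower, 4358 and 4300, and 4958 and 5102. With all 19 libraries 4761 genes were higher and 4912 lower. With the mouse as a replicate block, over the 8 mice with both populations, 14 members were higher and 6 lower. Over all genes, 2803 were then higher in place of 4761, and 4448 lower in place of 4912.

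**Figure D1:**
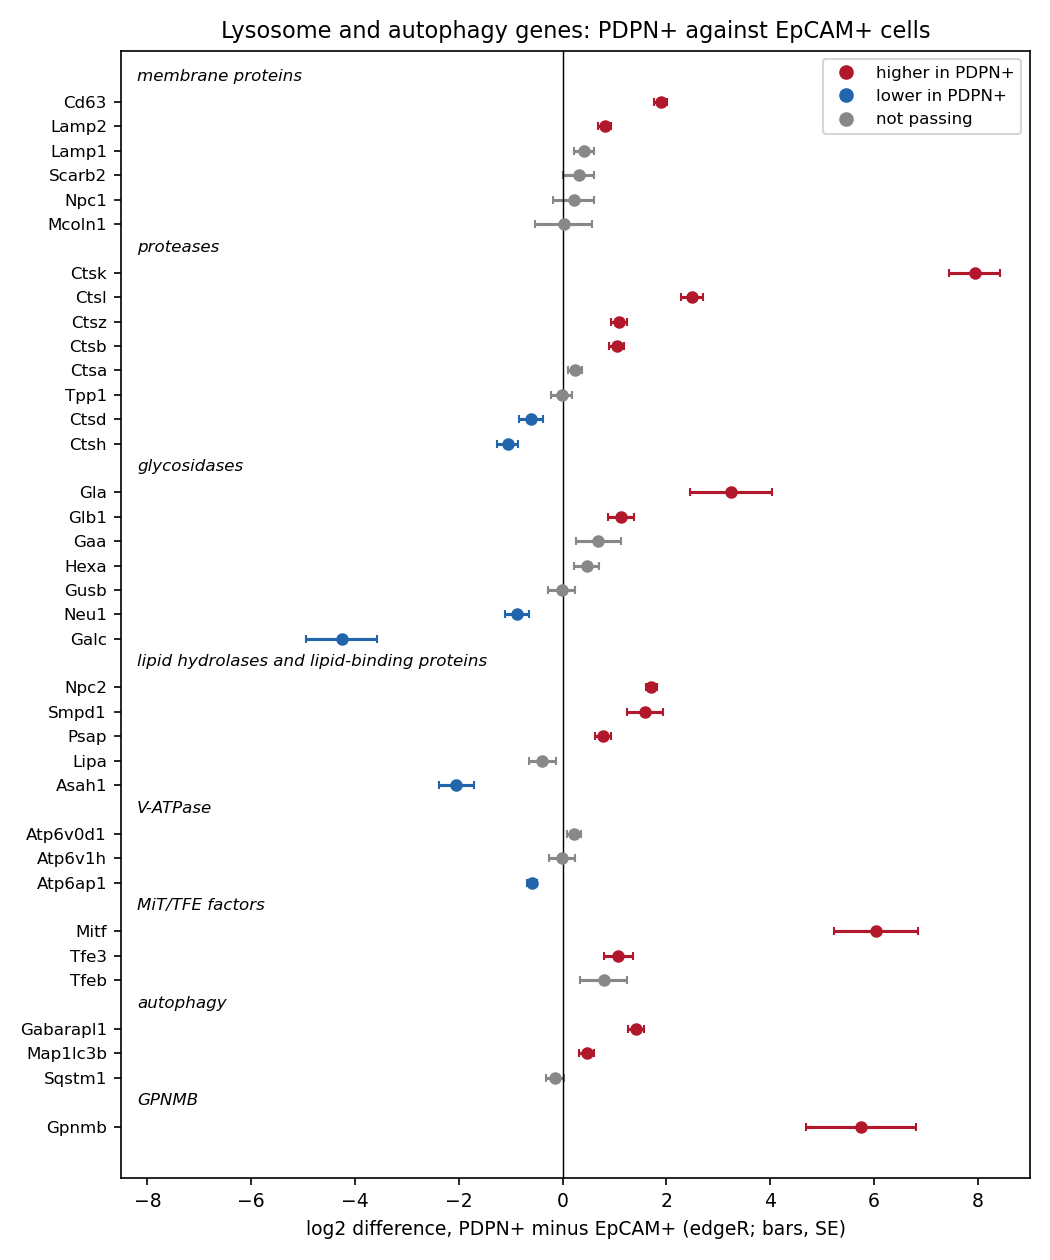
Log2 difference between PDPN+ and EpCAM+ cells (x axis, edgeR estimate, bars are the SE) for each of the 36 genes (y axis), ordered by role, in red where higher in PDPN+ cells, in blue where lower and in grey where the test did not pass. Ctsk lies farthest to the right at 7.94 and Galc farthest to the left at -4.26; on the log2(TPM + 1) scale Lamp2 was at -0.09 instead of 0.81.

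**Figure D2:**
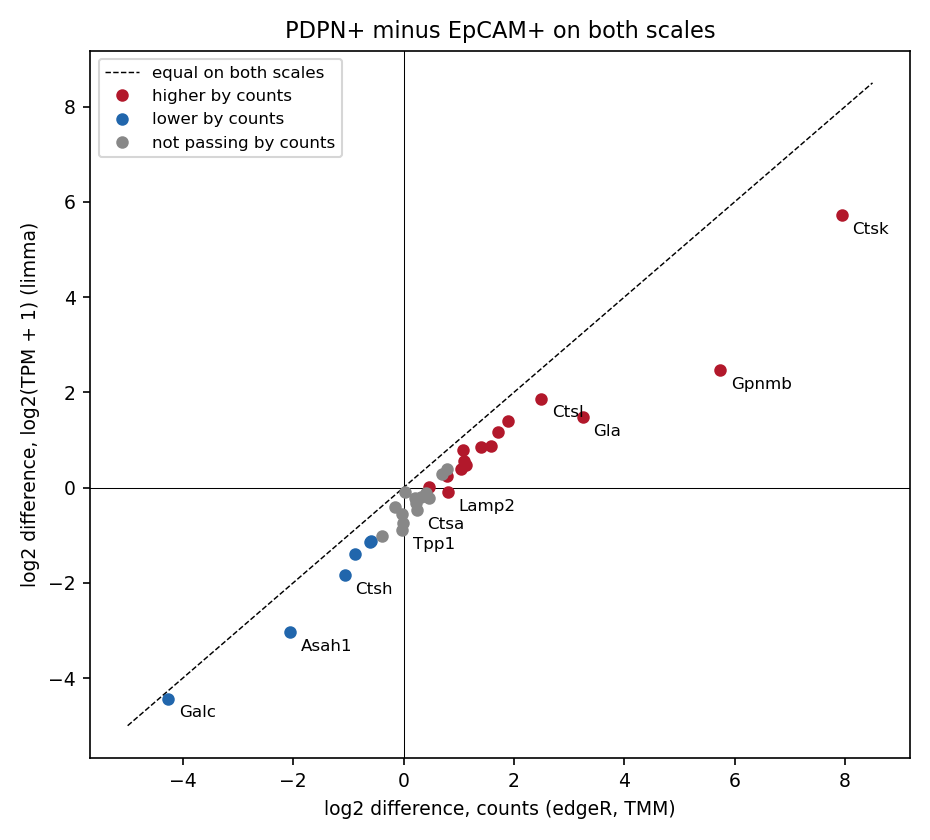
Log2 difference, PDPN+ minus EpCAM+, from read counts (x axis, edgeR) and from log2(TPM + 1) (y axis, limma) for the 35 members tested on both scales, coloured by their call from counts; the dashed line marks equal values. The points lie below the line, so that members near 0 by counts, such as Tpp1 at -0.02, fall below 0 on the TPM scale, at -0.89 for Tpp1.

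Within mice, by normalised counts, 11 members were higher in the PDPN+ library than in the EpCAM+ library of the same animal in all 8 mice, and 4 were lower in all 8 (Ctsh, Galc, Asah1 and Atp6ap1). In TPM these counts were 7 and 6. The share of all genes that went the same way in all 8 mice was not counted. Whether the members differ from other genes in this respect was therefore not tested. By normalised counts the 8 PDPN+ and 11 EpCAM+ libraries did not overlap for 9 members, 7 above (Cd63, Ctsk, Ctsl, Ctsz, Npc2, Gabarapl1 and Mitf) and 2 below (Galc and Asah1). Of all genes, 19.1% were separated in this way.

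The membrane group has 6 genes, of which 2 were higher and 4 did not pass. Cd63 codes for a tetraspanin of late endosomes, lysosomes and exosomes. In PDPN+ vehicle libraries Cd63 stood at 1651 (V53175), 2081 (V53179), 2008 (V53185) and 1913 TPM (V53188). In PDPN+ neratinib libraries it stood at 1026 (N53178), 1371 (N53180), 1636 (N53184) and 1323 TPM (N53194). EpCAM+ vehicle libraries had 497, 606 and 688 TPM as the lowest, median and highest, and the 5 EpCAM+ neratinib libraries had 671, 533, 583, 695 and 543 TPM. PDPN+ libraries all lay above the EpCAM+ libraries, and Cd63 was the most abundant member in PDPN+ cells. Its difference was 3.72-fold by counts (log2 1.89, SE 0.12, edgeR adjusted p = 2.56e-10).

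Lamp2, a main glycoprotein of the lysosomal membrane that also serves chaperone-mediated autophagy, was read differently by the scales. In PDPN+ vehicle libraries it had 160, 253, 163 and 134 TPM, in PDPN+ neratinib libraries 165, 231, 155 and 141 TPM. EpCAM+ vehicle libraries ranged from 174 to 251 TPM with a median of 184 TPM, and EpCAM+ neratinib libraries had 186, 136, 181, 196 and 174 TPM. The groups overlap in TPM, and 2 of 8 mice had the higher level in PDPN+ cells by TPM, against 7 of 8 by normalised counts. By counts the log2 difference was 0.81 (SE 0.13, edgeR adjusted p = 4.32e-05), and on log2(TPM + 1) it was -0.09 (limma adjusted p = 0.536). The Lamp2 transcript of 3604 bases had a mean of 102 TPM in PDPN+ and 49.6 TPM in EpCAM+ libraries. The one of 1769 bases had 71.9 and 133 TPM. Their part in the gap between the scales was not tested.

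Mcoln1 codes for the lysosomal calcium channel TRPML1 and had the smallest difference of the membrane group, 0.02 (SE 0.55, edgeR adjusted p = 0.98). PDPN+ vehicle libraries had 16.1, 12.8, 20.5 and 23.8 TPM and PDPN+ neratinib libraries 15.0, 2.00, 24.3 and 38.8 TPM. The EpCAM+ vehicle group had 7.93, 22.1 and 43.8 TPM as the lowest, median and highest, and EpCAM+ neratinib libraries 38.9, 9.69, 18.3, 9.73 and 8.43 TPM. The 3 EpCAM+ libraries that stood apart, V53175, V53176 and N53178, were the highest of the 11, at 43.8, 40.0 and 38.9 TPM against at most 30.4 TPM. The other membrane genes did not pass either. Lamp1, the sister of Lamp2, ranged from 20.8 to 52.7 TPM in PDPN+ and from 27.6 to 53.5 TPM in EpCAM+ libraries (0.41, edgeR adjusted p = 0.0803). Scarb2, a sorting receptor of the lysosomal membrane, ranged from 6.84 to 34.3 TPM and from 7.12 to 32.5 TPM (0.31, adjusted p = 0.41). Npc1, the cholesterol exporter, ranged from 2.23 to 28.5 TPM and from 9.09 to 18.5 TPM (0.21, adjusted p = 0.691), and its coding transcripts held a median of 21.6% of its TPM in PDPN+ and 60.4% in EpCAM+ libraries.

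Among the 8 proteases 4 were higher, 2 were lower and 2 did not pass. Ctsk (cathepsin K) is a collagen-degrading cysteine protease known from osteoclasts. PDPN+ vehicle libraries had 38.7 (V53175), 81.4 (V53179), 78.6 (V53185) and 96.6 TPM (V53188), and PDPN+ neratinib libraries had 72.5, 105, 58.6 and 88.1 TPM (N53178, N53180, N53184, N53194). EpCAM+ vehicle libraries reached at most 0.733 TPM, with a median of 0.314 TPM and a lowest value of 0.0839 TPM, and EpCAM+ neratinib libraries had 1.02, 0.285, 0.362, 0.268 and 0.811 TPM. No library of one population reached the range of the other. With 6 to 44 reads in each EpCAM+ library, the difference was 245-fold (log2 7.94, SE 0.49, edgeR adjusted p = 3.17e-10), the largest among the members.

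Ctsl codes for cathepsin L, a broad endopeptidase that is also secreted. Its PDPN+ vehicle libraries had 584, 759, 433 and 701 TPM and its PDPN+ neratinib libraries 437, 703, 566 and 405 TPM. In EpCAM+ vehicle libraries the lowest, median and highest were 113, 175 and 282 TPM, and EpCAM+ neratinib libraries had 100, 99.3, 129, 135 and 247 TPM. All PDPN+ libraries were above all EpCAM+ libraries, with a difference of 5.65-fold (log2 2.50, SE 0.21, edgeR adjusted p = 1.36e-08). Ctsb, which codes for cathepsin B, ranged from 590 to 1534 TPM in PDPN+ and from 627 to 1079 TPM in EpCAM+ libraries and was 2.05-fold higher by counts (edgeR adjusted p = 7.62e-06). Ctsz, the gene of the carboxypeptidase cathepsin Z, ranged from 168 to 371 TPM and from 152 to 268 TPM and was 2.13-fold higher (edgeR adjusted p = 5.6e-06). Both overlapped in TPM and were higher in PDPN+ cells in 8 of 8 mice by counts. Short retained-intron transcripts weigh on the TPM of Ctsb, whose coding transcripts held a median of 45.5% in PDPN+ and 41.9% in EpCAM+ libraries.

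Cathepsin H, an aminopeptidase encoded by Ctsh, and the aspartic protease cathepsin D, encoded by Ctsd, went the other way. In PDPN+ vehicle libraries Ctsh had 84.0, 71.7, 151 and 92.2 TPM, in PDPN+ neratinib libraries 272, 122, 217 and 148 TPM, and in EpCAM+ libraries 338 to 663 TPM. Ctsh was lower in PDPN+ cells by a log2 difference of -1.06 (SE 0.20, edgeR adjusted p = 0.000227), in all 8 mice, and with neratinib libraries alone the difference was -0.36 and did not pass (adjusted p = 0.452). Ctsd ranged from 186 to 503 TPM in PDPN+ and from 356 to 851 TPM in EpCAM+ libraries and was lower by -0.61 (SE 0.23, adjusted p = 0.0372). The call for Ctsd was lost without the EpCAM+ libraries N53194 (adjusted p = 0.0725), V53188 (0.0659) or V53179 (0.0561), and in vehicle libraries alone (0.0588).

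Tpp1, a tripeptidyl peptidase, had the smallest difference of the proteases. PDPN+ vehicle libraries had 85.7, 132, 71.1 and 71.6 TPM, PDPN+ neratinib libraries 14.2, 93.1, 137 and 67.1 TPM. Under vehicle, EpCAM+ libraries had 119, 128 and 183 TPM as the lowest, median and highest, and EpCAM+ neratinib libraries 108, 135, 126, 143 and 149 TPM. N53178 was the lowest of all libraries, and the populations overlapped, with a log2 difference of -0.02 by counts (SE 0.20, edgeR adjusted p = 0.948) and -0.89 on log2(TPM + 1) (limma adjusted p = 0.0108). Ctsa, a carboxypeptidase that also protects NEU1 and GLB1 in a complex, ranged from 64.6 to 216 TPM in PDPN+ and from 191 to 238 TPM in EpCAM+ libraries and did not pass by counts (0.24, edgeR adjusted p = 0.167).

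The 7 glycosidases split into 2 higher, 2 lower and 3 that did not pass. Galc, which removes galactose from galactosylceramide, had 0.760 (V53175), 5.29 (V53179), 2.78 (V53185) and 9.05 TPM (V53188) in PDPN+ vehicle libraries and 0.233, 0.0446, 3.22 and 0.274 TPM in PDPN+ neratinib libraries. The lowest, median and highest EpCAM+ vehicle libraries had 41.0, 54.9 and 81.9 TPM, and EpCAM+ neratinib libraries had 39.4, 67.4, 55.7, 52.9 and 81.7 TPM. PDPN+ libraries were all far below the EpCAM+ libraries, and the log2 difference was -4.26 (SE 0.69, edgeR adjusted p = 4.51e-05).

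Gla, the alpha-galactosidase that is missing in Fabry disease, was higher in PDPN+ cells but at low levels. Its PDPN+ vehicle libraries had 0.125, 3.17, 3.39 and 14.5 TPM and its PDPN+ neratinib libraries 1.94, 8.97, 8.10 and 5.46 TPM. Among EpCAM+ vehicle libraries the lowest, median and highest had 0.458, 0.816 and 1.82 TPM, and EpCAM+ neratinib libraries 0.168, 0.523, 1.86, 3.10 and 0 TPM. V53175 and N53178 of the PDPN+ cells, at 0.125 and 1.94 TPM, lay within the EpCAM+ range, and the other PDPN+ libraries were above it. The difference was 9.5-fold (log2 3.25, SE 0.79, edgeR adjusted p = 0.0022), and it did not pass in neratinib libraries alone (3.26, adjusted p = 0.0713).

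Glb1, the lysosomal beta-galactosidase, ranged from 11.8 to 108 TPM in PDPN+ and from 24.6 to 51.8 TPM in EpCAM+ libraries. It was 2.19-fold higher by counts (edgeR adjusted p = 0.000976) and not on log2(TPM + 1) (0.48, limma adjusted p = 0.154). Neu1, a sialidase, ranged from 11.3 to 39.2 TPM in PDPN+ and from 31.6 to 72.6 TPM in EpCAM+ libraries. It was lower by -0.88 (SE 0.23, edgeR adjusted p = 0.00428), but not in vehicle libraries alone (-0.65, adjusted p = 0.224), where V53175 had 39.2 TPM. Gusb, the beta-glucuronidase, had the smallest difference of the glycosidases, -0.02 (SE 0.26, edgeR adjusted p = 0.965). PDPN+ vehicle libraries of Gusb had 32.1, 47.8, 43.2 and 92.8 TPM and PDPN+ neratinib libraries 58.3, 66.0, 59.2 and 16.6 TPM. EpCAM+ vehicle libraries had 56.6, 68.6 and 78.1 TPM as the lowest, median and highest, and EpCAM+ neratinib libraries 69.2, 59.4, 68.3, 95.0 and 69.6 TPM. The populations overlapped, with a wider spread among PDPN+ libraries. Gaa, which breaks down glycogen, ranged from 15.7 to 98.3 TPM in PDPN+ and from 8.94 to 77.3 TPM in EpCAM+ libraries and did not pass (0.69, edgeR adjusted p = 0.195). Hexa, a subunit of beta-hexosaminidase, ranged from 22.2 to 136 TPM and from 65.9 to 98.8 TPM and did not pass either (0.46, adjusted p = 0.13).

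Of the 5 lipid hydrolases and lipid-binding proteins 3 were higher, 1 was lower and 1 did not pass. Asah1, the acid ceramidase that splits ceramide into sphingosine and a fatty acid, had 70.3, 116, 56.3 and 76.8 TPM in PDPN+ vehicle and 3.64, 88.1, 40.1 and 60.2 TPM in PDPN+ neratinib libraries. In EpCAM+ vehicle libraries the lowest, median and highest were 345, 390 and 435 TPM, and EpCAM+ neratinib libraries had 379, 396, 471, 498 and 388 TPM. The 2 populations did not overlap, N53178 was the lowest library, and the log2 difference was -2.05 (SE 0.34, edgeR adjusted p = 5.33e-05).

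Npc2, the soluble protein that hands cholesterol to NPC1, had 307, 349, 318 and 309 TPM in PDPN+ vehicle libraries and 186, 319, 277 and 321 TPM in PDPN+ neratinib libraries. The EpCAM+ vehicle group had 104, 134 and 142 TPM as the lowest, median and highest, and EpCAM+ neratinib libraries 139, 121, 133, 123 and 141 TPM. All PDPN+ libraries exceeded all EpCAM+ libraries, and the difference was 3.27-fold (log2 1.71, SE 0.11, edgeR adjusted p = 5.47e-10). Smpd1, the acid sphingomyelinase that makes ceramide, ranged from 13.0 to 81.4 TPM in PDPN+ and from 7.80 to 26.9 TPM in EpCAM+ libraries. It was higher by 1.59 (SE 0.35, edgeR adjusted p = 0.000852). That call was lost in neratinib libraries alone (adjusted p = 0.0572) and without the 5 libraries that stood apart (0.86, adjusted p = 0.0543). Psap, the precursor of the saposins that present sphingolipids to hydrolases, ranged from 374 to 850 TPM and from 420 to 680 TPM. It was higher by counts (0.78, edgeR adjusted p = 0.000246) and not on log2(TPM + 1) (0.24, limma adjusted p = 0.133).

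Lipa, the lysosomal acid lipase for cholesteryl esters and triglycerides, had 69.0, 49.4, 44.9 and 78.1 TPM in PDPN+ vehicle and 14.3, 50.1, 72.0 and 37.3 TPM in PDPN+ neratinib libraries. Under vehicle, EpCAM+ libraries had 62.3, 96.7 and 141 TPM as the lowest, median and highest, and EpCAM+ neratinib libraries 84.2, 94.9, 96.7, 151 and 68.3 TPM. PDPN+ libraries were mostly the lower ones, with overlap between 62.3 and 78.1 TPM. The log2 difference was -0.39 by counts (SE 0.26, edgeR adjusted p = 0.218), -0.75 without V53175 and V53188 of the PDPN+ cells (adjusted p = 0.0395), -0.70 without N53184 of the PDPN+ cells (adjusted p = 0.0207) and -1.02 on log2(TPM + 1) (limma adjusted p = 0.00132).

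Of the 3 genes of the proton pump, 1 was lower and 2 did not pass. Atp6ap1, an accessory subunit needed for assembly of the pump, had 91.4, 109, 103 and 82.3 TPM in PDPN+ vehicle libraries and 98.4, 93.8, 108 and 101 TPM in PDPN+ neratinib libraries. The lowest, median and highest EpCAM+ vehicle libraries had 191, 214 and 246 TPM, and EpCAM+ neratinib libraries 237, 209, 208, 215 and 222 TPM. All PDPN+ libraries were below all EpCAM+ libraries in TPM, with little spread in either, and the log2 difference was -0.59 by counts (SE 0.10, edgeR adjusted p = 8.34e-05).

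Atp6v1h, a regulatory subunit of the cytosolic part of the pump, had 43.8, 72.3, 43.0 and 32.3 TPM in PDPN+ vehicle and 25.3, 7.11, 51.8 and 37.7 TPM in PDPN+ neratinib libraries. Among EpCAM+ vehicle libraries the lowest, median and highest had 49.9, 55.2 and 62.1 TPM, and EpCAM+ neratinib libraries 58.6, 62.7, 62.2, 56.5 and 56.3 TPM. EpCAM+ libraries lay close together, PDPN+ libraries were scattered around and below them, and the log2 difference was -0.01 (SE 0.25, edgeR adjusted p = 0.97). Atp6v0d1, a subunit that couples the cytosolic part to the membrane part, ranged from 69.6 to 125 TPM in PDPN+ and from 94.0 to 141 TPM in EpCAM+ libraries and did not pass (0.22, edgeR adjusted p = 0.187).

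**Figure D3:**
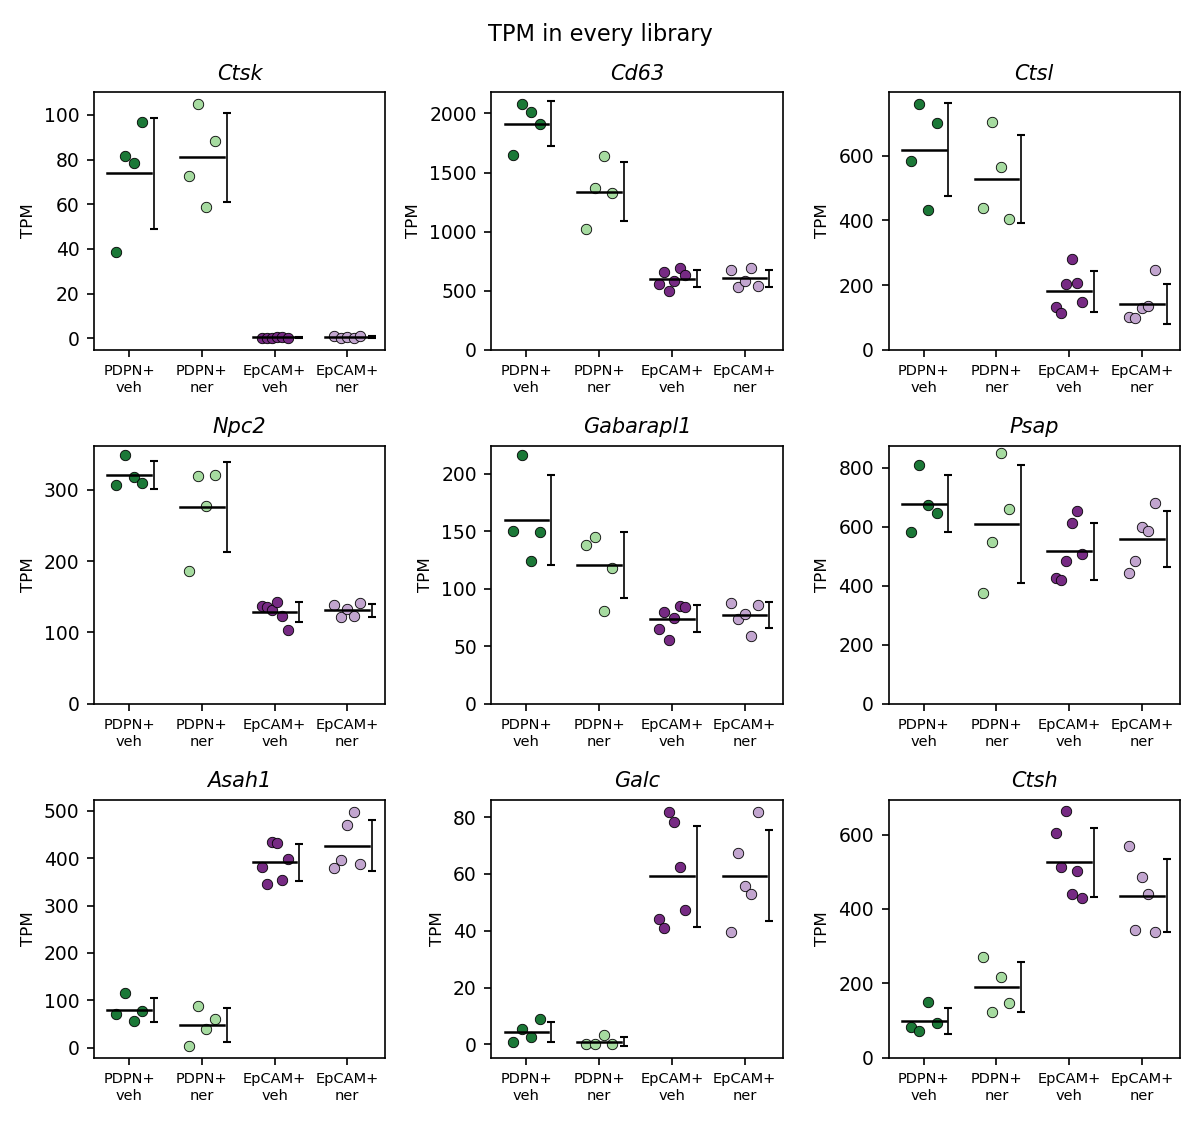
TPM (y axis, from 0) of 9 members in every library of the 4 groups (x axis); points are libraries, horizontal lines the group means and vertical bars the SD. Ctsk, Cd63, Ctsl and Npc2 are separated with PDPN+ libraries above, Asah1, Galc and Ctsh with PDPN+ libraries below, and Gabarapl1 and Psap overlap.

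All 3 MiT/TFE factors had positive differences, of which 2 passed. Tfeb, the factor best known for its control of lysosomal genes, had 7.85, 7.43, 8.02 and 6.17 TPM in PDPN+ vehicle and 3.25, 7.68, 16.6 and 2.46 TPM in PDPN+ neratinib libraries. EpCAM+ vehicle libraries had 2.58, 4.78 and 6.14 TPM as the lowest, median and highest, and EpCAM+ neratinib libraries 1.31, 5.42, 7.48, 7.67 and 7.81 TPM. Among vehicle libraries the lowest PDPN+ value, 6.17 TPM, was barely above the highest EpCAM+ value, 6.14 TPM, and among neratinib libraries the populations overlapped. The share of all genes separated among vehicle libraries was not counted. The log2 difference was 0.79 (SE 0.45, edgeR adjusted p = 0.155), and it passed with transcript length offsets (1.05, adjusted p = 0.0467).

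Tfe3, a close relative with broader expression, had 50.4, 25.4, 38.3 and 43.4 TPM in PDPN+ vehicle and 25.8, 71.5, 14.2 and 21.7 TPM in PDPN+ neratinib libraries. The EpCAM+ vehicle group had 8.53, 22.4 and 28.5 TPM as the lowest, median and highest, and EpCAM+ neratinib libraries 9.31, 23.6, 26.1, 20.3 and 19.4 TPM. The groups overlapped. Coding transcripts held a median of 62.6% of the Tfe3 TPM in PDPN+ and 83.3% in EpCAM+ libraries. These coding transcripts had 21.2 ± 12.4 TPM (SD, n = 8) and 15.8 ± 7.29 TPM (SD, n = 11). Over all Tfe3 transcripts, the difference by counts was 2.09-fold (log2 1.07, SE 0.28, edgeR adjusted p = 0.00362). With the mouse as a replicate block it was 0.93 (adjusted p = 0.0549), and without V53175 and V53188 of the PDPN+ cells 0.61 (adjusted p = 0.0824), and without all 5 libraries 0.39 (adjusted p = 0.179).

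Mitf, the member of the family best known from melanocytes and osteoclasts, was low in all libraries. PDPN+ vehicle libraries had 1.28, 0.811, 1.49 and 0.0588 TPM and PDPN+ neratinib libraries 5.46, 0.596, 0.501 and 0.711 TPM. Under vehicle, EpCAM+ libraries had 0.00512, 0.0404 and 0.0699 TPM as the lowest, median and highest, and EpCAM+ neratinib libraries 0, 0.0278, 0.0295, 0.0325 and 0.0784 TPM. V53188 of the PDPN+ cells lay within the EpCAM+ range in TPM, and N53178 was the highest library. With 0 to 14 reads in each EpCAM+ library, the log2 difference was 6.03 (SE 0.81, edgeR adjusted p = 6.31e-06). Sox10, a defining gene of melanocytes and Schwann cells, was at 0 in every library.

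Gpnmb, a transmembrane glycoprotein induced in cells with lysosomal stress, was higher in PDPN+ cells. PDPN+ vehicle libraries had 9.01, 7.01, 3.81 and 0.553 TPM and PDPN+ neratinib libraries 27.0, 6.14, 8.87 and 7.95 TPM. The lowest, median and highest EpCAM+ vehicle libraries had 0, 0.0124 and 0.360 TPM, and EpCAM+ neratinib libraries 0.0838, 0.0115, 2.03, 0.427 and 2.77 TPM. As for Mitf, V53188 was the lowest and N53178 the highest PDPN+ library. The difference was 53.3-fold (log2 5.74, SE 1.06, edgeR adjusted p = 0.000183). Gpnmb is also expressed by macrophages. In N53178 their summed markers were at 89.3 TPM, the lowest sum among PDPN+ libraries, but at 54.7 TPM without Cd14, within the range of the others. C1qa was at 16.6 TPM in N53178, its highest level, but C1qb was at 7.25 TPM, against 35.2 TPM in N53184. The part of macrophages in the Gpnmb values was not tested.

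**Figure D4:**
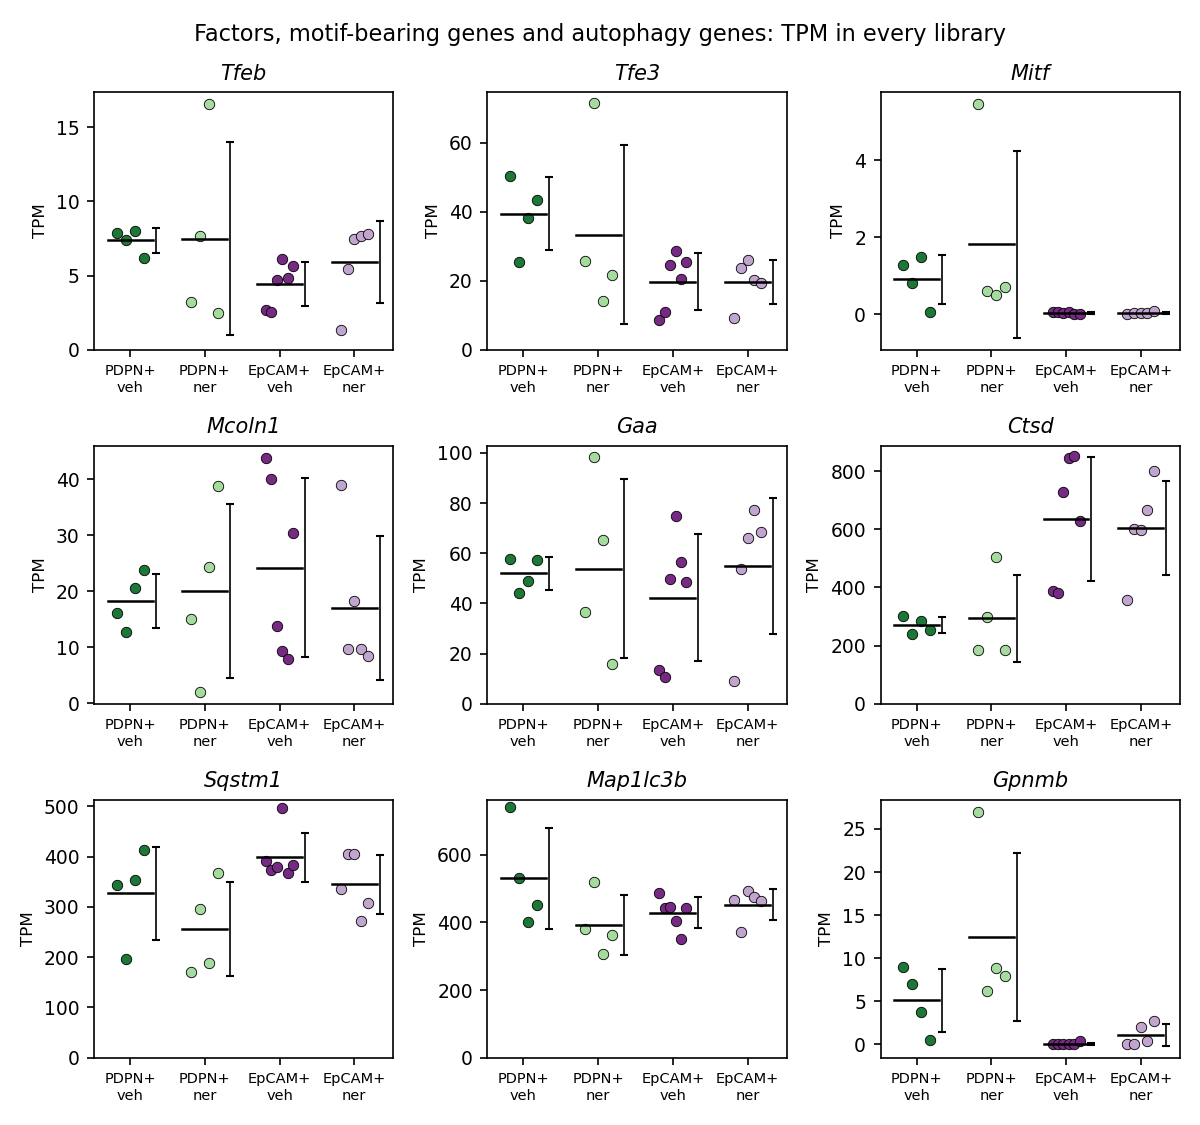
TPM (y axis, from 0) of the 3 MiT/TFE factors, of Mcoln1, Gaa and Ctsd, of the autophagy genes Sqstm1 and Map1lc3b and of Gpnmb in every library of the 4 groups (x axis), drawn as in the plot of Ctsk and Cd63. For Gaa and Ctsd 3 EpCAM+ libraries lie below the others, for Mcoln1 above them, and Mitf and Gpnmb have one high PDPN+ neratinib library, at 5.46 and 27.0 TPM.

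Promoters were searched for the palindromic E-box TCACGTGA, which lies at the centre of the motif reported for TFEB targets and reads the same on both strands. RefSeq promoters on GRCm38.p6, from 250 bases before to 50 bases after the gene start, were matched for 31 members (38 promoters), and none was matched for Npc1, Ctsb, Ctsh, Asah1 and Atp6v1h. The motif was in promoters of 5 members (13.2% of their promoters), in 8.55% of the promoters of the other lysosome and autophagy genes and in 0.974% of all 32851 promoters. Its 6-base core, CACGTG, which is part of the longer motif, was in promoters of 9 members (23.7% of promoters, against 7.15% of all). GTCACGTGAC, with one more base on each side, was in none of the members' promoters and in 0.326% of all. The 5 members with TCACGTGA are shown because they set the motif beside genes that did not move one way; capitals mark the motif, the strand is that of the gene, and the stretches end at most 20 bases after the gene start.
Atp6v0d1, chr8:105566045-105566114, minus strand: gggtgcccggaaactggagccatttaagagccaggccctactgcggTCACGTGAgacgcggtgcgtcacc
Ctsa, chr2:164833714-164833792, plus strand: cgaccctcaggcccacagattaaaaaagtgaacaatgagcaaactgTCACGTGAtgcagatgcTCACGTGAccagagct
Ctsd, chr7:142387873-142387972, minus strand: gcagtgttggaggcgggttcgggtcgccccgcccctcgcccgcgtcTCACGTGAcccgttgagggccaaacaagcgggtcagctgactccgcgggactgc
Gla, chrX:134601147-134601255, minus strand: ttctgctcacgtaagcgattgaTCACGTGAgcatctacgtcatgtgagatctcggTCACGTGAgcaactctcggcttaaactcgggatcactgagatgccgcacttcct
Mcoln1, chr8:3500427-3500526, plus strand: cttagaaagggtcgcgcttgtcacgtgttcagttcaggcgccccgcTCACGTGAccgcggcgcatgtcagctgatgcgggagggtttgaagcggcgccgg

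Ctsa and Gla carried the motif at 2 places each. Between the populations these 5 genes did not share a direction by counts: Gla was higher in PDPN+ cells, Ctsd was lower, and Atp6v0d1, Ctsa and Mcoln1 did not pass. A match is a description of these letters and says nothing of binding.

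Of the 3 autophagy genes 2 were higher and 1 did not pass. Gabarapl1, an ATG8-family protein that is attached to autophagosome membranes, had 150, 216, 124 and 149 TPM in PDPN+ vehicle and 138, 145, 80.9 and 118 TPM in PDPN+ neratinib libraries. Among EpCAM+ vehicle libraries the lowest, median and highest had 55.6, 76.9 and 84.9 TPM, and EpCAM+ neratinib libraries 87.9, 73.8, 77.8, 59.2 and 86.2 TPM. In TPM N53184 alone of the PDPN+ libraries lay within the EpCAM+ range, and by normalised counts none did. The difference was 2.66-fold (log2 1.41, SE 0.16, edgeR adjusted p = 5.16e-07).

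Map1lc3b, which codes for the autophagosome marker LC3B, had 740, 530, 402 and 451 TPM in PDPN+ vehicle and 381, 519, 307 and 363 TPM in PDPN+ neratinib libraries. EpCAM+ vehicle libraries had 351, 442 and 488 TPM as the lowest, median and highest, and EpCAM+ neratinib libraries 466, 371, 492, 474 and 462 TPM. The groups overlapped throughout, and V53175 of the PDPN+ cells was the highest library. The log2 difference was 0.46 (SE 0.15, edgeR adjusted p = 0.0147). This call did not hold with the mouse as a replicate block (0.38, adjusted p = 0.0857), without V53175 (0.25, adjusted p = 0.1) or N53180 (0.33, adjusted p = 0.0679) of the PDPN+ cells, or on log2(TPM + 1) (0.02, limma adjusted p = 0.863).

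Sqstm1 codes for p62, the receptor that brings ubiquitinated cargo to autophagosomes. It had 343, 197, 353 and 414 TPM in PDPN+ vehicle and 171, 296, 188 and 368 TPM in PDPN+ neratinib libraries. The EpCAM+ vehicle group had 368, 381 and 496 TPM as the lowest, median and highest, and EpCAM+ neratinib libraries 335, 405, 405, 272 and 307 TPM. The groups overlapped, and the log2 difference was -0.15 (SE 0.18, edgeR adjusted p = 0.502). It passed as lower without V53175 and V53188 of the PDPN+ cells (-0.48, adjusted p = 0.036).

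By level, the members ranked differently in the populations. In PDPN+ cells Cd63 came first at 1626 ± 369 TPM (SD, n = 8), followed by Ctsb at 1107 ± 298, Psap at 643 ± 150, Ctsl at 574 ± 139 and Map1lc3b at 462 ± 136 TPM. In EpCAM+ cells Ctsb led at 823 ± 129 TPM (SD, n = 11), followed by Ctsd at 622 ± 182, Cd63 at 603 ± 68.1, Psap at 535 ± 93.7 and Ctsh at 484 ± 101 TPM. The step between neighbours exceeded the SD of both genes for Cd63 to Ctsb and Ctsb to Psap in PDPN+ cells and for Ctsb to Ctsd in EpCAM+ cells, and the other steps among these genes did not. Mitf was last in both, at 1.36 ± 1.72 and 0.0362 ± 0.0251 TPM. Summed over the 36 members, the level was 7843 ± 539.5 TPM in PDPN+ vehicle, 6451 ± 1120 TPM in PDPN+ neratinib, 6377 ± 626.8 TPM in EpCAM+ vehicle and 6318 ± 455.1 TPM in EpCAM+ neratinib libraries. The members varied more among PDPN+ libraries, where the median coefficient of variation over both treatments was 44.6%, than among EpCAM+ libraries, where it was 20.4%. It was 28.7% in PDPN+ vehicle, 48.0% in PDPN+ neratinib, 19.1% in EpCAM+ vehicle and 22.5% in EpCAM+ neratinib libraries. The coefficient was not computed over all genes. Whether the members differ from other genes in this spread was therefore not tested.

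The rest of the lysosome and autophagy genes, 129 in 6 lists, were called about as often as genes at large: 32 of the 128 tested were higher (25.0%), 28 were lower (21.9%) and 68 did not pass, against 24.3% higher and 25.0% lower among all genes, shares that also apply to the lists below. Among 10 other proteases 5 were higher and 1 was lower, which was Ctse (cathepsin E, -12.72, edgeR adjusted p = 2.66e-08), at 0.215 TPM in PDPN+ and 1060 TPM in EpCAM+ cells. Lgmn (legumain, an asparaginyl endopeptidase) and Scpep1 (a serine carboxypeptidase) were higher by 1.88 and 1.36 (adjusted p = 1.23e-06 and 5.87e-06). Of 24 other hydrolases 9 were higher and 1 was lower, with Gm2a, the activator of beta-hexosaminidase, at 2.14 (adjusted p = 2.89e-09) and Pla2g15, a lysosomal phospholipase, at 2.12 (0.000121). The 21 other membrane and transport genes had 6 higher and 5 lower, among them Gnptab, which builds the mannose 6-phosphate tag of hydrolases (1.87, adjusted p = 3.08e-06), Laptm4a (0.80, 3.13e-05) and the sialomucin Cd164 (-0.78, 2.18e-05).

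The 16 other V-ATPase subunits had 1 higher and 7 lower, with a median of -0.42. Tcirg1, the a3 subunit known from osteoclasts, was higher by 1.38 (edgeR adjusted p = 1.44e-05), Atp6v1b2 was lower by -0.89 (0.000240), and Atp6v1b1 was listed at 0 in PDPN+ libraries against a mean of 0.484 TPM. Of 37 other autophagy genes 6 were higher and 11 were lower, and the 3 with the smallest p were higher: Map1lc3a, the LC3A gene (2.83, edgeR adjusted p = 1.30e-08), Gabarap (0.96, 2.14e-06) and Wipi1, which binds phosphoinositides on forming autophagosomes (2.00, 4.62e-06). Among the 20 tested genes that control TFEB, 5 were higher and 3 were lower, with Lamtor4 of the Ragulator complex at 0.93 (adjusted p = 6.47e-05), the GTPase Rraga at -1.09 (0.000322) and the calcineurin subunit Ppp3ca at 0.80 (0.000378).

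The series was designed to compare neratinib with vehicle within each population. No member passed in PDPN+ cells (0 of 36, 4 neratinib against 4 vehicle libraries) or in EpCAM+ cells (0 of 35, 5 against 6, with Mitf too low to be tested), by edgeR, by DESeq2 or by limma on log2(TPM + 1). Among all genes, 0% passed in PDPN+ (14437 tested) and 0% in EpCAM+ cells (17200 tested) by edgeR. At an unadjusted edgeR p under 0.05 there was 1 member in PDPN+ cells (2.29% of all genes) and 2 in EpCAM+ cells (3.05% of all genes). For no member were the neratinib and vehicle libraries of a population separated by normalised counts, against 2.27% of all genes in PDPN+ and 0.238% in EpCAM+ cells. In PDPN+ cells the SE of a log2 fold change was smallest for Cd63, at 0.24, and largest for Galc, followed by Mitf at 1.41. In EpCAM+ cells it ranged from 0.08 for Atp6v1h to 1.43 for Gpnmb.

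In PDPN+ cells Ctsh was the member with an unadjusted p under 0.05. Neratinib libraries had 272 (N53178), 122 (N53180), 217 (N53184) and 148 TPM (N53194), and vehicle libraries 84.0 (V53175), 71.7 (V53179), 151 (V53185) and 92.2 TPM (V53188). The vehicle library V53185 lay above 2 of the neratinib libraries, and the others were below all of them. The log2 fold change was 1.05 (SE 0.37, edgeR adjusted p = 1), and it was 1.05 also without V53175 and V53188. Ctsh is also expressed by macrophages, of whose 13 markers 8 were tested in PDPN+ cells. Of these, 5 had positive and 3 negative fold changes, and none passed. Their median log2 fold change was 2.37 against 0.06 over all genes. In median TPM, Cd14 went from 221 under vehicle to 72.3 under neratinib, Fcer1g from 10.2 to 1.58 and Csf1r from 14.4 to 15.5. C1qa stood at 16.6, 14.8, 7.78 and 5.08 TPM in N53178, N53180, N53184 and N53194 and at 0, 7.21, 3.50 and 0 TPM in V53175, V53179, V53185 and V53188. In the same order C1qb stood at 7.25, 8.88, 35.2 and 4.50 TPM and at 0.0327, 3.17, 12.1 and 0 TPM. Without Cd14 the markers summed to 54.7, 41.8, 464 and 64.5 TPM in these neratinib libraries and to 88.0, 42.8, 59.3 and 39.2 TPM in these vehicle libraries. The part of macrophages in the Ctsh values was not tested. In EpCAM+ cells Ctsh had a fold change of -0.35 (SE 0.19, edgeR adjusted p = 0.999), with 430 to 663 TPM in vehicle and 338 to 569 TPM in neratinib libraries.

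The difference between both effects was 1.40 for Ctsh (SE 0.39, edgeR adjusted p = 0.159), the smallest p of the members in that test. By DESeq2 it was 1.43 and passed (adjusted p = 0.0402). Over the other alternatives the adjusted p ran from 0.0948 to 0.432. No member passed this test of the difference by edgeR, and among all genes 0.0662% did.

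In EpCAM+ cells the members with an unadjusted p under 0.05 were Gpnmb and Sqstm1. Gpnmb had 0.0838 (N53178), 0.0115 (N53180), 2.03 (N53184), 0.427 (N53193) and 2.77 TPM (N53194) under neratinib and 0, 0.0124 and 0.360 TPM as the lowest, median and highest under vehicle. Of the 5 neratinib libraries, 3 were above all vehicle libraries, and the other two lay within their range. Its log2 fold change was 4.27 (SE 1.43, edgeR adjusted p = 0.999), from 0 to 30 reads in vehicle libraries. In PDPN+ cells Gpnmb had a fold change of 1.44 (SE 0.88, edgeR adjusted p = 1). Macrophage markers, summed without Cd14, were at 57.3, 11.0, 65.8, 22.4 and 55.4 TPM in N53178, N53180, N53184, N53193 and N53194 of the EpCAM+ libraries and at 12.1 to 37.2 TPM under vehicle, and with Cd14 at 498, 251, 417, 226 and 377 TPM against 272 to 369 TPM. N53184 and N53194, the highest for Gpnmb, were among the 3 highest sums, and so was N53178, which was low for Gpnmb. The part of macrophages in these values was not tested. Sqstm1 had a fold change of -0.28 (SE 0.13, edgeR adjusted p = 0.999), with 272 to 405 TPM under neratinib and 368 to 496 TPM under vehicle.

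**Figure D5:**
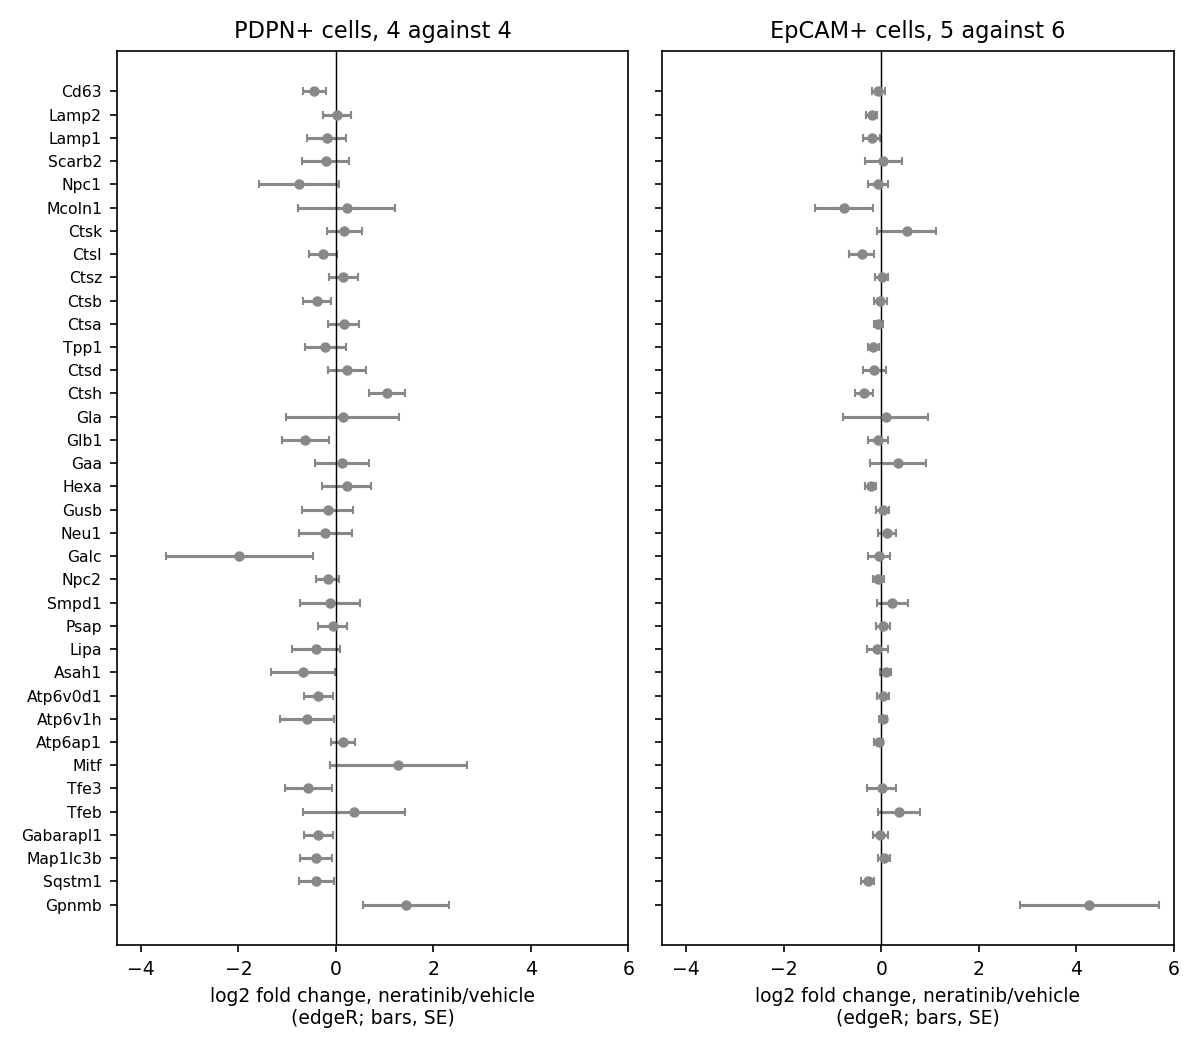
Log2 fold change of neratinib against vehicle (x axis, edgeR estimate, bars are the SE) for each member (y axis) in PDPN+ cells (left) and EpCAM+ cells (right, without Mitf). No member passed the test in either panel; Ctsh at 1.05 on the left and Gpnmb at 4.27 on the right lie farthest from 0 relative to their SE.

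In PDPN+ cells 14 fold changes were positive and 22 negative, with a median of -0.18 against 0.06 over all genes, and without V53175 and V53188 the median turned to 0.15. In EpCAM+ cells the median was -0.02 against -0.00 over all genes. All 5 lipid hydrolases and lipid-binding genes and all 3 autophagy genes had negative values in PDPN+ cells, from -0.07 for Psap to -0.67 for Asah1, and none passed. One neratinib library, N53178 of the PDPN+ cells, was the lowest of its group for 14 members, with Asah1 at 3.64, Tpp1 at 14.2, Lipa at 14.3 and Ctsa at 64.6 TPM. Of all 19 libraries it had the fewest gene reads (30.32 M) and the highest shares of mitochondrial reads (19.45%) and of reads on unmatched transcripts (8.96%), whose part in these levels was not tested. Libraries of the EpCAM+ cells were the lowest of their groups as often, V53176 for 17 members (of 6 libraries) and N53178 for 16 (of 5). How often a library was the lowest over all genes was not counted. Among the other lysosome and autophagy genes 0 passed in either population, and the smallest p were those of Gm2a in PDPN+ cells (-0.85, edgeR adjusted p = 1.00) and Galns, a sulfatase, in EpCAM+ cells (0.36, adjusted p = 0.999).

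The 3 EpCAM+ libraries that stood apart, 2 vehicle and 1 neratinib, lay outside the range of the other 8 by normalised counts for 9 of 35 members (25.7%). This is near the 27.2% of all 17200 genes, so it is not a result about the members. They were below it for Tfe3, Tfeb, Neu1, Ctsd, Galc, Gaa and Smpd1 and above it for Mcoln1 and Npc2. Gaa had 13.3, 10.5 and 8.94 TPM in V53175, V53176 and N53178 and 48.5 to 77.3 TPM in the others, and Ctsd had 387, 380 and 356 TPM against 599 to 851 TPM. In TPM Npc2 overlapped, at 136 to 139 TPM against 104 to 142 TPM. These libraries were set apart by the same expression values, so the values are a description and carry no test.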

How the data were processed

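RNA-seq was deposited for 19 libraries. The authors quantified reads with Salmon 1.9.0 on GRCm39 (mm39), per the submitters' processing notes. The strand setting, options and transcriptome release were not given in the sources used. Each deposited table lists transcripts with unnormalised estimated counts, TPM and an effective length, per the file headers. Low-input libraries were amplified by PCR with cycles set by RNA amount, per the labels' protocols, so estimated counts are not independent molecules.

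Transcripts were matched by identifier to GENCODE M21, which belongs to GRCm38, another build, and was used for names, transcript types and exon overlaps, with no coordinates printed from it. Of 147828 transcripts 137063 matched and were summed to 51707 genes, and the 10765 unmatched ones (4.07 to 8.96% of reads in PDPN+ and 1.765 to 2.263% in EpCAM+ libraries) were left out. Gene sums were rounded to whole reads. Tests were edgeR 4.0.16 quasi-likelihood tests (TMM scaling, filterByExpr, robust) in R 4.3.3, with Benjamini-Hochberg adjustment over all genes tested and a threshold of 0.05. The population test used 4 group means over 19 libraries, and each neratinib test used the libraries of one population. DESeq2 1.42.0 and limma 3.58.1 on log2(TPM + 1), for genes with a mean of at least 1 TPM, were alternatives. The tests were tried on simulated data. Libraries with 3 reads of a gene have 0.0398 to 0.09895 CPM, which limits what a 0 shows, for counting error only.

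The members and gene lists were chosen with earlier results of these data known. All 36 members are accounted for. Values in every library were given for the 2 passing members with the largest difference and the one with the smallest in each role, for the transcription factors, autophagy genes and Gpnmb, and for neratinib for members with an unadjusted p under 0.05; of other lists at most 3 genes with the smallest p were named, and 1 gene that this rule selects is not reported here.

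Same-numbered PDPN+ and EpCAM+ libraries were paired because the number was read as the same animal. Correlations of their deviations from the group means ran from -0.107 to 0.0306. The mouse as a replicate block changed the calls of Tfe3 and Map1lc3b and of no other member. Exons of 14 members overlap another gene, such as Fdft1 for Ctsb and Mrnip for Sqstm1, and reads of such pairs may not be separated. TPM sums include short noncoding transcripts.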

Additional observations from a re-analysis of the deposited data

Results flagged for a closer look

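Of 144 sets of 4 to 6 TPM values (a member in a group), 13 had a library set apart from the rest by Dixon's criterion, where chance flags about 1 in 20. In EpCAM+ vehicle libraries these were Lamp2 in V53185 at 251 TPM (next value 194), Sqstm1 in V53185 at 496 TPM (next 391) and Gpnmb in V53192 at 0.360 TPM (next 0.0496). In EpCAM+ neratinib libraries they were Ctsa in N53194 at 191 TPM (next 217), Ctsl in N53194 at 247 TPM (next 135), Gusb in N53193 at 95.0 TPM (next 69.6), Smpd1 in N53178 at 9.19 TPM (next 20.7) and Map1lc3b in N53180 at 371 TPM (next 462). Among PDPN+ neratinib libraries they were Galc in N53184 at 3.22 TPM (next 0.274), Gusb in N53194 at 16.6 TPM (next 58.3), Mitf in N53178 at 5.46 TPM (next 0.711) and Gpnmb in N53178 at 27.0 TPM (next 8.87). In PDPN+ vehicle libraries it was Neu1 in V53175 at 39.2 TPM (next 16.8).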

How the results depend on the processing

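Of the 22 members called between the populations, 12 kept their call under every alternative run (Asah1, Atp6ap1, Cd63, Ctsb, Ctsk, Ctsl, Ctsz, Gabarapl1, Galc, Gpnmb, Mitf and Npc2, with Mitf not tested on the TPM scale) and 10 lost it under at least 1. How many of all called genes kept their call under every alternative was not counted. Leaving out each library in turn gave 15 to 17 members higher and 5 to 7 lower. Over all genes these runs gave 4328 to 5004 higher and 4590 to 5803 lower. On log2(TPM + 1) with limma 13 members were lower. Of the members that changed sign on that scale, Ctsa (-0.48) and Atp6v0d1 (-0.32) passed as lower. Lamp1 (-0.12), Lamp2 (-0.09), Scarb2 (-0.19), Npc1 (-0.22), Mcoln1 (-0.09) and Hexa (-0.21) changed sign there without passing. Under other alternatives, members near 0 changed sign without passing. Npc1 was at -0.13 in neratinib libraries alone, -0.31 with the replicate block, -0.33 without V53175 and V53188 of the PDPN+ cells and -0.46 without all 5 libraries. Mcoln1 was at -0.03 with DESeq2 size factors, -0.04 by DESeq2, -0.08 without the low-count filter, -0.41 in vehicle libraries alone, -0.00 with the block and -0.08 without the 2 PDPN+ libraries. Tpp1 was at 0.07, Gusb at 0.15 and Atp6v1h at 0.35 in vehicle libraries alone; with length offsets Gusb was at 0.10 and Sqstm1 at 0.12; without the 3 EpCAM+ libraries Gusb was at 0.03 and Atp6v1h at 0.01. Atp6v0d1 was at -0.04 without the 2 PDPN+ libraries and -0.09 without all 5. With each library left out, Npc1 ran from -0.35 to 0.32, Mcoln1 from -0.35 to 0.29, Tpp1 from -0.27 to 0.05, Gusb from -0.40 to 0.04 and Atp6v1h from -0.33 to 0.10. Over all genes, the 4761 higher and 4912 lower became 2581 and 6947 on the TPM scale and 2803 and 4448 with the replicate block. They became 2834 and 2587 in vehicle and 2822 and 3016 in neratinib libraries alone. For neratinib, where edgeR called 0 genes, DESeq2 called 24 higher and 52 lower in PDPN+ and 4 and 11 in EpCAM+ cells, one fit over all libraries called 21 and 90 in PDPN+ cells, and limma called 1 lower there. For the difference of the effects, 1 member was higher by DESeq2 (Ctsh), and the 1 higher and 12 lower genes became 201 and 486 by DESeq2, 31 and 541 without the 2 PDPN+ libraries, 12 and 302 without all 5, and 0 and 1 by limma or without the 3 EpCAM+ libraries; length offsets gave 0 higher, and leaving out each library gave 1 to 11 higher and 8 to 126 lower. The alternatives without libraries that stood apart were chosen after seeing the data. The cause of these shifts was not tested.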
